A study of Mus musculus with 8 samples.

Results

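Id2 and Id3, the Inhibitor of DNA binding genes expressed in mature T cells, and the E-protein genes Tcf3 and Tcf12 were followed through bone marrow T cells of mice. These 4 genes were taken by their symbols from the 32285 genes counted in each of 4 single-cell libraries, and each symbol matched 1 row. They were chosen by their UMI levels in earlier results of these data, in which Id2 and Id3 moved in opposite directions. Id2, Id3 and their balance across cell classes, clone sizes, pools and groups are therefore given as a description with no test. Tcf3, Tcf12 and the gene lists below were run through tests over all genes. Their p-values and counts come from the data used for the choice, and are read as a description too. The mice were C57BL/6 and carried Runx1::Runx1t1, the fusion gene of a common form of acute myeloid leukemia, as a knock-in allele (Runx1Runx1t1/+). In the Runx1::Runx1t1 group the mice also had Mx1-Cre, a recombinase that is switched on by interferon in blood cells and in other tissues. The control littermates were matched for sex, and the paper gives them as Runx1Runx1t1/+ without Mx1-Cre while the labels give wild type. All mice of both groups had received Poly(I:C), an inducer of interferon, in 4 injections of 5 mg/kg, and bone marrow was taken 4 weeks after induction. CD3+ cells without mCherry, the reporter of the fusion, were sorted after depletion of other cells, so cells that express the reporter were meant to be left out. Each group had 2 pools of 2 mice, and every value below is given for replicate 1 and then replicate 2 of a group, with n = 2 pools per group.

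E proteins are basic helix-loop-helix transcription factors that bind DNA as dimers at a short motif called the E-box. Tcf3 encodes the E2A proteins and Tcf12 encodes HEB, which together are central to early T cell development and to the fate of mature T cells. Id proteins have the helix-loop-helix but no DNA-binding region, so a dimer of an Id protein with an E protein does not bind the E-box. In Cd8 T cells responding to infection, Id2 is known for its role in effector cells and Id3 for its role in naive and long-lived memory cells. In invariant natural killer T (iNKT) cells and in gamma-delta T cells both Id genes shape development.

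On mouse genome GRCm38 with GENCODE M21, Id2 (ENSMUSG00000020644) lies on chromosome 12 from 25093799 to 25097140 on the minus strand and Id3 (ENSMUSG00000007872) on chromosome 4 from 136143497 to 136145755 on the plus strand. Tcf3 (ENSMUSG00000020167) lies on chromosome 10 from 80409514 to 80433647 and Tcf12 (ENSMUSG00000032228) on chromosome 9 from 71842688 to 72111871, both on the minus strand. All 4 genes are protein coding. The promoters of Id2 and Id3 are shown because the counted reads start at the 5′ end of the transcripts and because these genes moved against each other. Each sequence is RefSeq's for GRCm38.p6, runs 5′ to 3′ on the strand of the gene, and holds 250 bases before and 50 bases after the start. Capitals mark the E-box, CANNTG, which reads the same on both strands.
Id2, chr12:25096043-25096342, minus strand: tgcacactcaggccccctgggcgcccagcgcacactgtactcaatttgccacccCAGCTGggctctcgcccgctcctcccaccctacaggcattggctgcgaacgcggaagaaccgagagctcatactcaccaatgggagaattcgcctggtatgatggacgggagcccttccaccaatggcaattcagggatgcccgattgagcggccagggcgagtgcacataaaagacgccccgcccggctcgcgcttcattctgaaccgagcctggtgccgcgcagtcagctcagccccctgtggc
Id3, chr4:136143572-136143871, plus strand: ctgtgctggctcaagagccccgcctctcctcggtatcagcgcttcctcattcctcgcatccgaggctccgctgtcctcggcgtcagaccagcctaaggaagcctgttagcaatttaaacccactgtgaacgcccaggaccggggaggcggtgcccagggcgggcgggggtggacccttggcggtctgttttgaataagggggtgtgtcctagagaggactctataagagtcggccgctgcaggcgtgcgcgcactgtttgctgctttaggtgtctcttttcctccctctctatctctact
The Id2 promoter held 1 E-box, CAGCTG at position -196 from the start, and the Id3 promoter held 0. At least 1 E-box was found in 23756 of 32851 promoters of this length (72.3%).

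The count tables held 90958101 to 102883449 unique molecular identifiers (UMIs, 1 per captured transcript) per pool. After filtering, 52924 cells were kept, and 49860 of them had a UMI of Cd3d, Cd3e or Cd3g and were called T cells. Of the kept barcodes, 1420 sequences occurred in more than 1 library, as barcodes drawn from a common set can. By their co-receptor UMIs, 26800 T cells were Cd8, 7257 were Cd4, 14082 had no co-receptor UMI and 1721 had UMIs of both and stood in no gate. Co-receptor-negative here means that no UMI was captured. When cells were clustered without the member genes, 31.6% and 35.1% of the co-receptor-negative cells of the Runx1::Runx1t1 pools fell into Cd4 clusters, and 8.25% and 11.4% in the control pools. Likewise 18.2% and 20.2% of the Cd4 gate fell into Cd8 clusters in the Runx1::Runx1t1 pools, and 5.16% and 4.36% in the control pools. Of the Cd8 gate, 8.44% and 6.02% fell into co-receptor-negative clusters in the Runx1::Runx1t1 pools, and 20.3% and 19.2% in the control pools. Summed markers of T cells stood at 2838 to 4334 CPM (UMIs of a gene per 1000000 UMIs) over the gates and pools and those of B cells at 5.56 to 33.8 CPM. The 7 neutrophil and myeloid markers summed to between 11.6 and 1914 CPM, and the highest value was in the co-receptor-negative gate. Runx1t1 had 55 and 73 UMIs in the T cells of the Runx1::Runx1t1 pools and 13 and 25 in the control pools.

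Id2 was lowest in Cd8 T cells and higher in Cd4 and co-receptor-negative T cells in each of the 4 pools. In Cd8 T cells, Id2 stood at 346 and 466 CPM in the Runx1::Runx1t1 pools and at 238 and 260.2 CPM in the control pools. The level in Cd4 T cells was 651 and 666 CPM in the Runx1::Runx1t1 pools and 560.2 and 519 CPM in the control pools. Co-receptor-negative T cells had Id2 at 585 and 556 CPM in the Runx1::Runx1t1 pools and at 482 and 475 CPM in the control pools. Within a pool, the Cd4 level of Id2 was 1.43 to 2.36 times that of Cd8 T cells. The order Cd4, co-receptor-negative, Cd8 therefore held for Id2 in all 4 pools, although the first pair lay close together.

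Id3 was lowest in the Cd4 gate. Cd8 T cells had Id3 at 48.0 and 54.4 CPM in the Runx1::Runx1t1 pools and at 82.6 and 85.4 CPM in the control pools. Its level in Cd4 T cells was 38.8 and 42.8 CPM in the Runx1::Runx1t1 pools and 66.5 and 58.5 CPM in the control pools. Co-receptor-negative T cells had Id3 at 44.4 and 55.1 CPM in the Runx1::Runx1t1 pools and at 71.2 and 75.1 CPM in the control pools. The Cd8 and co-receptor-negative levels of Id3 did not keep 1 order, since Runx1::Runx1t1 replicate 2 had 1.01 times as much Id3 in co-receptor-negative as in Cd8 T cells and the other pools had less. Cells kept without a Cd3 UMI or a TCR contig, a mixture of other marrow cells, held Id2 at 56.5 to 147 CPM and Id3 at 28.8 to 144 CPM.

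The balance, log2 of Id2 UMIs over Id3 UMIs, joined both patterns. Because the number of UMIs captured per transcript may differ between genes, the balance is compared between cell classes and is not read as which gene is more abundant. The balance in Cd8 T cells was 2.85 and 3.10 in the Runx1::Runx1t1 pools and 1.53 and 1.61 in the control pools. It was higher in co-receptor-negative T cells, at 3.72 and 3.33 in the Runx1::Runx1t1 pools and 2.76 and 2.66 in the control pools. The highest values were those of Cd4 T cells, 4.07 and 3.96 in the Runx1::Runx1t1 pools and 3.07 and 3.15 in the control pools. The order Cd8, co-receptor-negative, Cd4 held in all 4 pools, and in each gate both Runx1::Runx1t1 pools lay above both control pools. The place of Cd4 and co-receptor-negative T cells depended on how lineage was called, since with the lineage of clusters the mean balance over the pools was 2.94 in Cd4 and 3.38 in co-receptor-negative T cells, against 3.56 and 3.12 by UMIs. The setting with each clonotype counted once also left out cells without a clonotype and averaged CPM over cells instead of summing UMIs. Its means were 3.21 and 3.34, so this order turned there too, in a different set of cells. Cd8 T cells stayed lowest (2.35 with the lineage of clusters and 1.82 with each clonotype counted once).

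**Figure D1:**
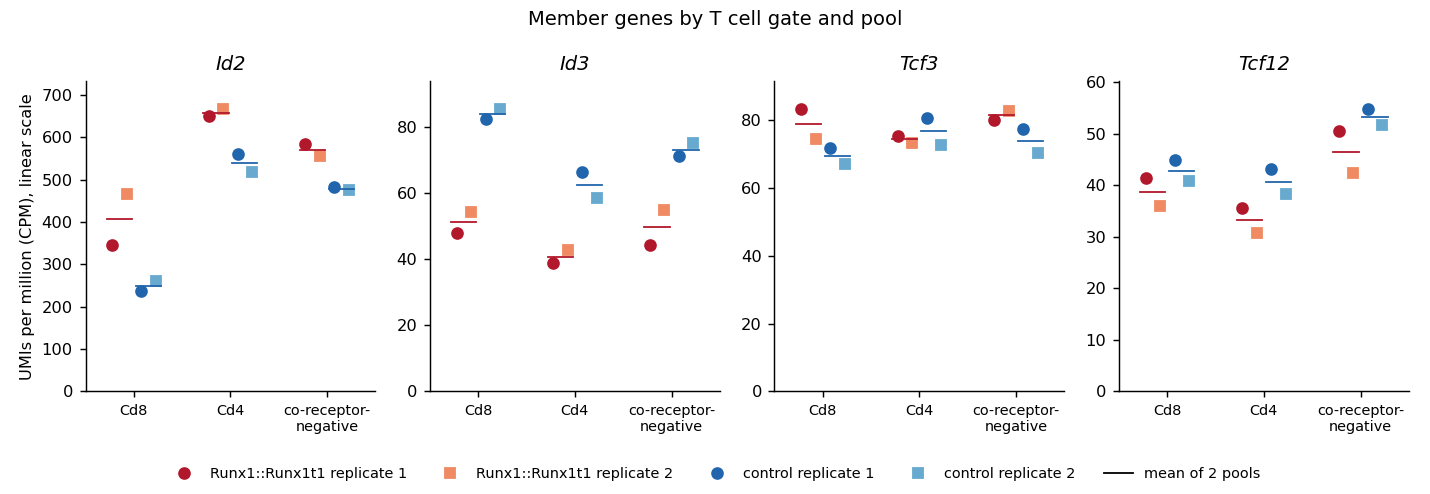
Levels of Id2, Id3, Tcf3 and Tcf12 in CPM (linear axis from 0) in Cd8, Cd4 and co-receptor-negative T cells, 1 point per pool and a line at the mean of 2 pools of a group. Id2 is lowest in the Cd8 gate and Id3 is lower in the Runx1::Runx1t1 pools (38.8 to 55.1) than in the control pools (58.5 to 85.4) in each gate.

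Tcf3 stood at 83.2 and 74.6 CPM in Cd8 T cells of the Runx1::Runx1t1 pools and at 71.9 and 66.9 CPM in those of the control pools. Tcf3 in Cd4 T cells stood at 75.5 and 73.2 CPM in the Runx1::Runx1t1 pools and at 80.7 and 72.8 CPM in the control pools. Co-receptor-negative T cells had Tcf3 at 80.1 and 82.7 CPM in the Runx1::Runx1t1 pools and at 77.4 and 70.4 CPM in the control pools. These levels of Tcf3 overlapped between all 3 gates.

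Tcf12 was lowest in the Cd4 gate and highest in the co-receptor-negative gate in every pool. It stood at 41.3 and 36.0 CPM in Cd8 T cells of the Runx1::Runx1t1 pools and at 44.8 and 40.8 CPM in those of the control pools. Tcf12 in Cd4 T cells stood at 35.6 and 30.7 CPM in the Runx1::Runx1t1 pools and at 43.2 and 38.3 CPM in the control pools. Co-receptor-negative T cells had Tcf12 at 50.5 and 42.3 CPM in the Runx1::Runx1t1 pools and at 54.8 and 51.7 CPM in the control pools. Within each pool the gates kept this order, while the ranges over pools overlapped.

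Counts summed per pool and gate were then compared over all genes by the quasi-likelihood test of edgeR, with a term for each pool and Benjamini-Hochberg adjustment. TMM, the scaling used in this test, set the median gene near 0, whereas scaling by total UMIs put the median gene 0.27 higher in Cd4 than in Cd8 T cells, 0.18 higher in co-receptor-negative than in Cd8 T cells and 0.27 higher in expanded than in single Cd8 clonotypes (log2). Between Cd4 and Cd8 T cells, 45% of 12663 genes passed the test (23.8% higher and 21.2% lower). Tcf12 was among them, with a log2 fold change of -0.42 (SE 0.04, adjusted p = 0.00024), and it was -0.15 (adjusted p = 0.051) with scaling by total UMIs. Tcf3 had a log2 fold change of -0.24 (SE 0.05, adjusted p = 0.0057) relative to the median gene, and its sign turned with scaling by total UMIs (0.02). Between co-receptor-negative and Cd8 T cells, 28.3% of 13031 genes passed (17.3% higher and 11.1% lower), and neither E-protein gene was among them, with Tcf12 at 0.12 (SE 0.04, adjusted p = 0.067) and Tcf3 at -0.10 (SE 0.05, adjusted p = 0.20). With scaling by total UMIs Tcf12 passed in this comparison, at 0.29 (adjusted p = 0.0027). The fitted log2 fold changes of Id2 were 0.65 and 0.56 in these 2 comparisons and those of Id3 were -0.64 and -0.30, as a description.

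Clone size also went with the balance in Cd8 T cells. A clonotype was the set of T cells of a pool with the same nucleotide CDR3 of both TCR chains. In Cd8 T cells of clonotypes seen once, Id2 stood at 229 and 237 CPM in the Runx1::Runx1t1 pools and at 212 and 217 CPM in the control pools. In Cd8 T cells of clonotypes with 10 or more cells it stood at 997 and 925 CPM in the Runx1::Runx1t1 pools and at 771 and 692 CPM in the control pools. Thus Id2 was 3.18 to 4.36 times as high in the large clonotypes, in each of the 4 pools.

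Id3 went the other way over the same cells. In clonotypes seen once, Id3 stood at 53.4 and 74.4 CPM in the Runx1::Runx1t1 pools and at 86.5 and 93.8 CPM in the control pools. In clonotypes of 10 or more cells it stood at 15.7 and 4.26 CPM in the Runx1::Runx1t1 pools and at 16.1 and 13.5 CPM in the control pools. These last levels rest on 72 and 55 UMIs of Id3 in the Runx1::Runx1t1 pools but on only 4 and 18 in the control pools, where such clonotypes held 51 and 237 Cd8 T cells. Id3 was 3.41 to 17.5 times lower in the large clonotypes than in those seen once.

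Both differences were already present in small clonotypes. In clonotypes of exactly 2 cells, Id2 stood at 584 and 694 CPM in the Runx1::Runx1t1 pools and at 431 and 504 CPM in the control pools, already above the clonotypes seen once in every pool. Id3 in these pairs of cells stood at 45.4 and 29.7 CPM in the Runx1::Runx1t1 pools and at 53.4 and 41.9 CPM in the control pools, below the clonotypes seen once in every pool. From 3 or 4 cells per clonotype onward, Id3 was at or below 26.6 CPM in every class of at least 30 cells.

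**Figure D2:**
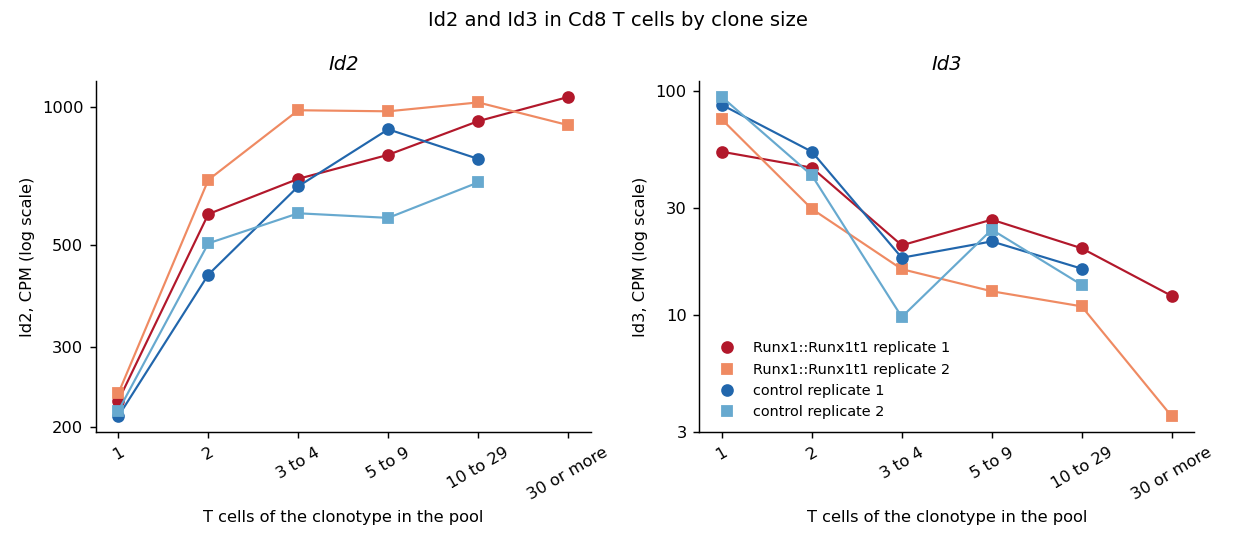
Id2 (left) and Id3 (right) in CPM (log axes) in Cd8 T cells by the number of T cells of their clonotype, 1 line per pool, with classes of under 30 Cd8 T cells left out. Id2 rises from 212 to 237 in clonotypes of 1 cell to 431 to 694 in those of 2 cells, and Id3 falls to 26.6 or less from 3 cells on.

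The large clonotypes were also viewed singly, which splits largely the same cells and is no further support. Of 68 clonotypes with at least 10 Cd8 T cells, 68 had a higher Id2 level and 67 a lower Id3 level than the clonotypes seen once in the same pool, and 25 had no Id3 UMI. The share of all genes with such one-sided counts was not taken. A count of 0 is a weak bound in small clonotypes. In 1 of 11 cells from control replicate 2, a floor of 3 UMIs stood at 68.9 CPM. The Runx1::Runx1t1 pools held 24 and 25 of these clonotypes and the control pools 4 and 15. The exception for Id3 was a clonotype of Runx1::Runx1t1 replicate 1 at 128 CPM, named here after its value was seen. The largest clonotype, TRAV6-6 with TRBV1 in Runx1::Runx1t1 replicate 2, had 1091 Cd8 T cells with 5686 UMIs of Id2 and 9 of Id3, a ratio of 632 (95% exact binomial interval 333 to 1382, counting error only). Its Id3 level was 1.41 CPM, which bounds what free RNA gave to these cells in that pool. The largest of Runx1::Runx1t1 replicate 1, TRAV9D-3 with TRBV17, had 111 Cd8 T cells and 763 UMIs of Id2 to 1 of Id3 (ratio interval 137 to 30176), the highest ratio among the 14 clonotypes of at least 30 Cd8 T cells with an Id3 UMI.

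The ratio also varied between large clonotypes. Among the 18 clonotypes of at least 30 Cd8 T cells, 4 had no Id3 UMI and the lowest ratio was 20.8 (interval 12.4 to 37.6), in a TRAV14-1 clonotype of 74 cells from Runx1::Runx1t1 replicate 1 with 312 UMIs of Id2 and 15 of Id3. It was named because its ratio was the lowest, and the interval covers counting error only, so its distance from other clonotypes was not tested. In the control pools the largest Cd8 clonotypes were smaller, TRAV14N-3 with TRBV17 at 13 cells (43 UMIs of Id2 to 2 of Id3, tied in size with others) and TRAV19 with TRBV13-3 at 24 cells (95 UMIs of Id2 to 1 of Id3). Over the 18 clonotypes Id2 ranged from 599 to 1527 CPM, Tcf3 from 32.8 to 120.0 CPM and Tcf12 from 7.63 to 57.6 CPM.

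**Figure D3:**
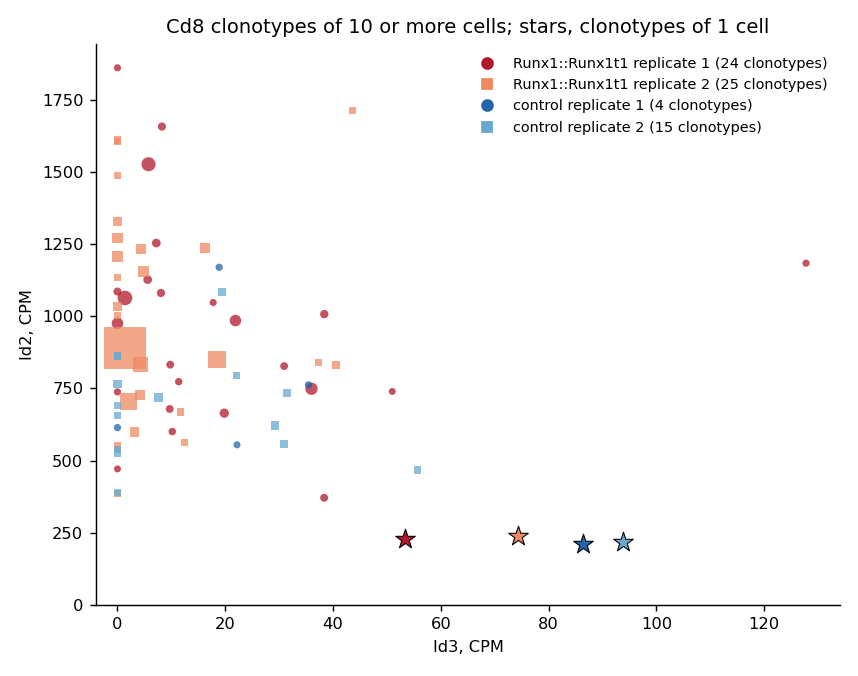
Id2 against Id3 (CPM) in each of 68 clonotypes with at least 10 Cd8 T cells, with the marker area growing with the number of cells, and a star for all Cd8 T cells of clonotypes seen once in the pool. The stars lie at the lower right (Id2 212 to 237, Id3 53.4 to 93.8), and all 68 clonotypes lie above the star of their pool.

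Tcf12 and Tcf3 were compared between clonotypes of 2 or more cells and those seen once with the same edgeR test, where 23.1% of 11936 genes passed (11.5% higher and 11.6% lower). Tcf12 stood at 33.8 and 21.9 CPM in the expanded clonotypes of the Runx1::Runx1t1 pools and at 40.4 and 44.1 CPM in those of the control pools, against 42.5, 42.2, 44.9 and 41.0 CPM in the clonotypes seen once. Its log2 fold change of -0.60 (SE 0.19) did not pass (adjusted p = 0.066) but passed in 4 of 13 alternatives (lowest adjusted p = 0.022), and control replicate 2 did not share its direction in CPM. Tcf3 stood at 92.2 and 59.1 CPM in the expanded clonotypes of the Runx1::Runx1t1 pools and at 94.0 and 81.3 CPM in those of the control pools, against 81.5, 80.4, 70.8 and 65.2 CPM in the clonotypes seen once. Its log2 fold change was -0.15 (SE 0.16, adjusted p = 0.54), with a sign that turned under scaling by total UMIs (0.11). The fitted log2 fold changes of Id2 and Id3 were 1.47 and -2.26, as a description.

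In Cd4 T cells clone size went with the balance in the Runx1::Runx1t1 pools but not in the same way in the controls. Id2 stood at 550.0 and 535 CPM in Cd4 clonotypes seen once of the Runx1::Runx1t1 pools and at 891 and 804 CPM in those of 10 or more cells. In the control pools it stood at 575 and 531 CPM in clonotypes seen once and at 577 and 1156 CPM in those of 10 or more cells, which held 70 and 18 cells. Id3 stood at 49.5 and 58.9 CPM in clonotypes seen once of the Runx1::Runx1t1 pools and at 12.0 and 20.01 CPM in those of 10 or more cells. In the control pools the Id3 levels were 65.2 and 58.3 CPM in clonotypes seen once and 83.7 and 61.4 CPM in those of 10 or more cells, the latter from 28 and 6 UMIs. The difference between the groups in this change was not tested. In co-receptor-negative clonotypes seen once, Id2 stood at 617 and 657 CPM in the Runx1::Runx1t1 pools and 509 and 488 CPM in the controls. In those of 10 or more cells it stood at 768 and 625 against 311 and 992 CPM. The pools of a group thus did not move the same way. These large clonotypes held 140, 98, 27 and 56 cells. Their Id3 was lower in each pool, at 9.36 and 33.1 against 35.5 and 16.1 CPM, from 4 to 16 UMIs.

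Cd8 T cells were also split by UMIs of Ccr7, the homing receptor of naive and central memory T cells, and Ccl5, a chemokine of effector and memory cells. In cells with Ccr7 and without Ccl5, Id3 stood at 63.5 and 90.7 CPM in the Runx1::Runx1t1 pools and at 68.5 and 71.8 CPM in the control pools, so the groups overlapped. Id2 in these cells stood at 158 and 150.0 CPM in the Runx1::Runx1t1 pools and at 170.3 and 157 CPM in the control pools. Most Ccr7 cells, 3217 and 3013 in the Runx1::Runx1t1 pools and 2240 and 2428 in the control pools, also had a Ccl5 UMI, and in them the groups did not overlap. Id3 in these cells with both UMIs stood at 52.8 and 76.8 CPM in the Runx1::Runx1t1 pools and at 99.8 and 104 CPM in the control pools, and Id2 at 200.2 and 209 CPM against 164 and 179 CPM. In cells with Ccl5 and without Ccr7, Id2 stood at 715 and 850 CPM in the Runx1::Runx1t1 pools and at 430.5 and 431 CPM in the control pools. Id3 in the Ccl5 cells stood at 29.9 and 19.3 CPM in the Runx1::Runx1t1 pools and at 66.8 and 70.0 CPM in the control pools. Here the groups did not overlap for either gene.

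The gap between the groups in Ccl5 cells was also seen in clonotypes of 1 cell. There Id2 stood at 498 and 605 CPM in the Runx1::Runx1t1 pools and at 359 and 349 CPM in the control pools, and Id3 at 42.4 and 52.8 CPM against 75.6 and 87.6 CPM. In the expanded clonotypes with Ccl5 and without Ccr7, Id3 stood at 18.5 and 5.24 CPM in the Runx1::Runx1t1 pools and at 20.7 and 20.99 CPM in the control pools. Of the Cd8 T cells with a Ccr7 UMI, 75.2% and 85.2% also had a Ccl5 UMI in the Runx1::Runx1t1 pools and 53.6% and 58.8% in the control pools, and the part of free Ccl5 RNA in these shares was not tested. In Cd4 T cells with Ccl5 and without Ccr7, Id2 stood at 814 and 808 CPM in the Runx1::Runx1t1 pools and at 829 and 810.1 CPM in the control pools. Id3 stood at 28.4 and 33.3 CPM against 34.5 and 37.0 CPM in these Cd4 cells.

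Within the co-receptor-negative gate the balance differed between classes of T cells. Those with the invariant TRAV11-TRAJ18 chain of iNKT cells had Id2 at 1183 and 1223 CPM in the Runx1::Runx1t1 pools and at 1367 and 1303 CPM in the control pools. Id3 in these cells stood at 18.1 and 21.3 CPM in the Runx1::Runx1t1 pools and at 17.7 and 12.6 CPM in the control pools, from 16 to 39 UMIs per pool. Their balance was 6.03 and 5.84 in the Runx1::Runx1t1 pools and 6.27 and 6.69 in the control pools, so the Runx1::Runx1t1 pools lay below the controls here.

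Other co-receptor-negative T cells lay lower. In those with other paired alpha-beta chains, the balance was 3.53 and 3.49 in the Runx1::Runx1t1 pools and 2.26 and 2.14 in the control pools. In gamma-delta T cells, called by Trdc and a gamma constant gene without an alpha-beta contig, it was 3.34 and 3.19 in the Runx1::Runx1t1 pools and 2.81 and 2.75 in the control pools. Id2 in the gamma-delta cells stood at 458 and 569 CPM in the Runx1::Runx1t1 pools and at 486 and 513 CPM in the control pools, which overlapped, while Id3 stood at 45.2 and 62.2 CPM against 69.4 and 76.4 CPM.

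**Figure D4:**
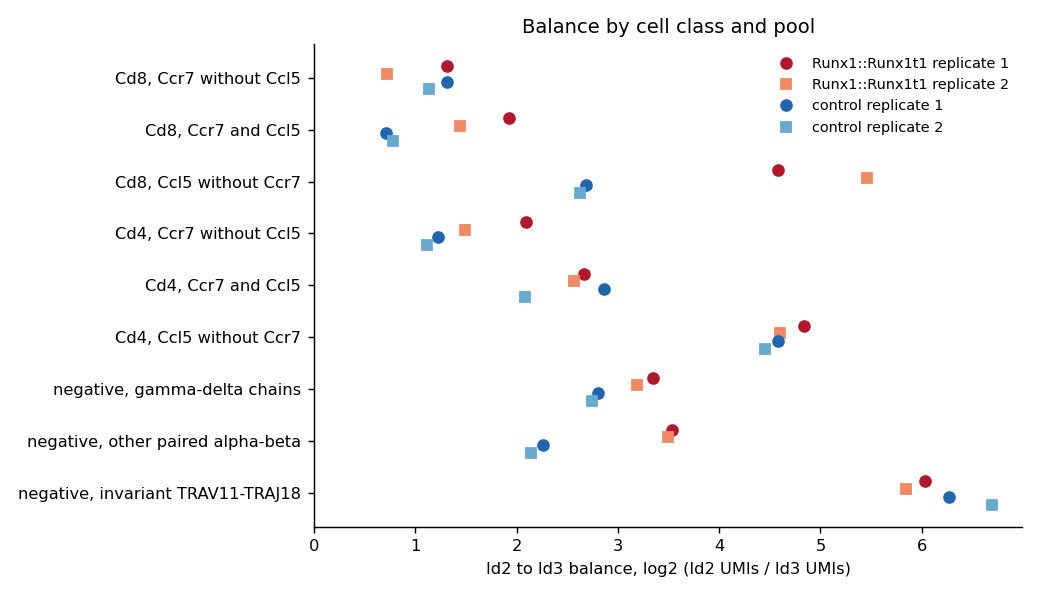
Balance (log2 of Id2 UMIs over Id3 UMIs) in 9 classes of T cells, 1 point per pool. Of these 9 classes the invariant TRAV11-TRAJ18 cells have the highest balance (5.84 to 6.69), the Runx1::Runx1t1 pools lie to the right of both control pools by the widest margin in Cd8 T cells with Ccl5 and without Ccr7, and the groups overlap in Cd8 T cells with Ccr7 and without Ccl5.

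The design of the study sets the Runx1::Runx1t1 mice against their controls, and this comparison was made for each gate over pools. Id3 was lower and Id2 higher in both Runx1::Runx1t1 pools than in both control pools in all 3 gates. An exact permutation test of 2 pools against 2 cannot give a two-sided p under 0.33. The share of all genes whose groups do not overlap was not counted. Non-overlap of the groups, here and elsewhere in this text, is therefore not read as particular to these genes. Markers of other cells differed between the groups as well. The 5 NK cell markers summed to 95 and 48 CPM in the Cd8 gate of the Runx1::Runx1t1 pools against 233 and 199.9 CPM in the control pools, to 92.3 and 34.6 against 246 and 199.98 CPM in the Cd4 gate, and to 592 and 443 against 1195 and 1041 CPM in the co-receptor-negative gate. The 4 progenitor and mast cell markers summed to 60.2 and 61.7 against 4.63 and 9.79 CPM in the Cd8 gate, to 83.4 and 58.9 against 8.83 and 14.9 CPM in the Cd4 gate, and to 238 and 523 against 9.46 and 39.1 CPM in the co-receptor-negative gate. The 7 neutrophil and myeloid markers summed to 23.2 and 27.5 against 208 and 86.5 CPM in the Cd8 gate. In the co-receptor-negative gate they summed to 61.3 and 133 against 1914 and 581 CPM, while the groups overlapped in the Cd4 gate. Klrb1c of the NK list also served as a marker of iNKT cells. No marker of these lists was at 0 but 1 NK and 1 progenitor marker in the Cd4 gate of control replicate 2. The part of these markers in the result was not tested. Over the Cd8 gate, Id3 averaged 51.2 ± 4.54 CPM (SD, n = 2) in the Runx1::Runx1t1 group and 84.0 ± 2.03 CPM (n = 2) in the control group, and Id2 averaged 406 ± 84.6 and 249 ± 15.9 CPM (n = 2 each). With the edgeR test 1 of 13360 genes (0.00749%) passed in the Cd8 gate, and it was higher. By comparison 2863 genes had an unadjusted p under 0.05 and DESeq2 called 864. The fitted log2 fold change of Id3 was -0.78 and that of Id2 was 0.64, with no test as stated above.

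In the Cd4 gate 1.93% of 11636 genes passed (1.27% higher and 0.662% lower). The fitted log2 fold changes there were -0.57 for Id3 and 0.33 for Id2. In the co-receptor-negative gate 6.29% of 12798 genes passed (4.07% higher and 2.22% lower). The fitted log2 fold changes in this gate were -0.64 for Id3 and 0.18 for Id2. Each gate, also that of Cd8 T cells, was a different mix of clusters in the 2 groups, as given above. The part of this mix in the results was not tested. In bulk sums of a gate, fewer cells of a type and less RNA per cell cannot be told apart.

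Tcf3 and Tcf12 did not pass in any gate in the main fit. Of the alternatives, 1 of 13 called Tcf3 in Cd8 T cells and 2 of 11 called Tcf12 in co-receptor-negative T cells. The log2 fold changes of Tcf12 were -0.20 (SE 0.12, adjusted p = 0.38) in Cd8, -0.25 (SE 0.12, adjusted p = 0.32) in Cd4 and -0.26 (SE 0.11, adjusted p = 0.20) in co-receptor-negative T cells. Those of Tcf3 were 0.13 (SE 0.10, adjusted p = 0.50), 0.00 (SE 0.07, adjusted p = 0.99) and 0.07 (SE 0.07, adjusted p = 0.60).

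**Figure D5:**
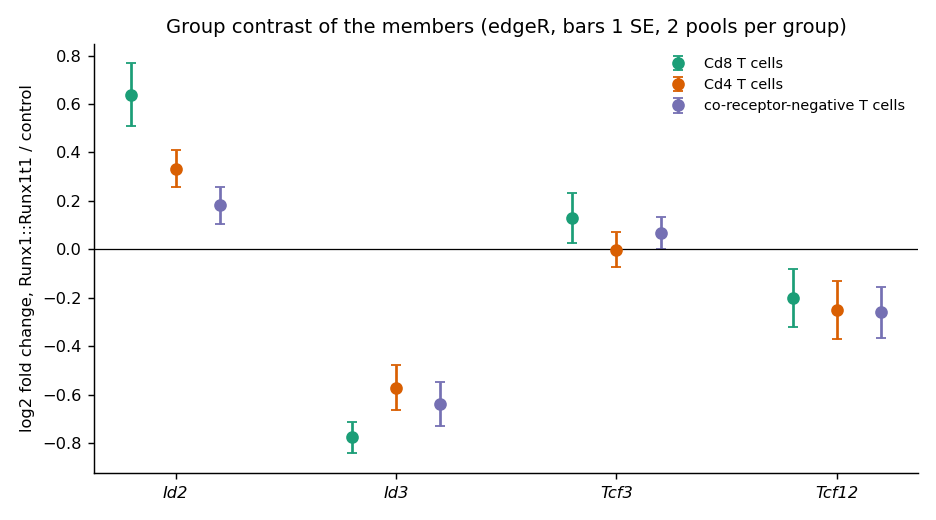
Log2 fold changes of the 4 genes in the Runx1::Runx1t1 group over the control group by edgeR in the 3 gates, with bars of 1 SE over 2 pools per group. The bars come from the F statistic of the fit and are not read as a test of Id2 or Id3. Id3 lies between -0.78 and -0.57 and Id2 between 0.18 and 0.64. Tcf12 lies between -0.26 and -0.20, whereas the bars of Tcf3 lie near 0.

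The balance was 1.41 higher in the Runx1::Runx1t1 group than in the control group in Cd8, 0.90 higher in Cd4 and 0.82 higher in co-receptor-negative T cells. These differences are a description of 2 pools against 2. The Runx1::Runx1t1 pools had more cells in expanded clonotypes, which made up 24.7% and 44.4% of their Cd8 T cells with a clonotype and 8.14% and 14.6% in the control pools. When clonotypes of 1 cell alone were used, the difference in the balance was 0.63 in Cd8, 0.17 in Cd4 and 1.13 in co-receptor-negative T cells. In these Cd8 cells the log2 fold change of Id3 was -0.48 and that of Id2 was 0.14, while Tcf3 passed at 0.27 (adjusted p = 0.046), as did 678 genes in all. By an interaction term in edgeR, the group difference of Tcf3 and of Tcf12 did not pass between gates or clone classes (lowest adjusted p = 0.23, for Tcf12 between expanded and single clonotypes). The genes that passed were 51 of 13457 between Cd4 and Cd8 T cells, 91 of 13822 between co-receptor-negative and Cd8 T cells and 0 of 12731 between the clone classes, where 2119 genes had an unadjusted p under 0.05.

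Genes known to go with each side of the balance were followed from fixed lists. Over all genes, 11.5% were higher and 11.6% lower in expanded against single Cd8 clonotypes. In expanded against single Cd8 clonotypes, 10 of 12 Id3-side genes of naive and memory cells fell and 0 rose, with a median log2 fold change of -1.74 (0.01 over all genes). Ccr7 fell by 4.34 (SE 0.60), Satb1, a chromatin organizer, by 2.84 (SE 0.67) and Lef1, a partner of Tcf7, by 2.19 (SE 0.34). Of the 12 Id2-side effector genes 10 rose and 0 fell, with a median of 1.84. Cx3cr1, a chemokine receptor of effector cells, rose by 3.60 (SE 0.31), the receptor Klrg1 by 3.31 (SE 0.33), Gzmb, which encodes granzyme B, by 3.15 (SE 0.22) and Prdm1, which encodes the repressor Blimp-1, by 2.85 (SE 0.24). Without Runx1::Runx1t1 replicate 1 the counts were 1 of 12 lower and 7 of 12 higher, with medians of -1.65 and 1.80, and 136 genes passed in all. Among 11 tested partners of E and Id proteins, only Lmo4, a LIM-domain adaptor, passed in this comparison, with a fall of 0.73 (SE 0.18).

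E-protein targets and inducers of Id genes moved less with clone size. Of 8 tested E-protein target genes, Gfi1 (0.60, SE 0.15) and Notch1 (0.33, SE 0.07) rose and Foxo1, which keeps naive cells quiescent, fell by 0.56 (SE 0.05). Of the 12 inducers of Id genes 4 fell, namely Stat5a (-0.62, SE 0.15), Tgfbr2 (-0.45, SE 0.06), Stat5b (-0.33, SE 0.06) and Smad4 (-0.24, SE 0.06), of which only Tgfbr2 passed under scaling by total UMIs (Stat5a at -0.37, adjusted p = 0.074, Stat5b at -0.07, adjusted p = 0.41, and Smad4 at 0.02, adjusted p = 0.86). Lmo4 did not pass under that scaling either (-0.47, adjusted p = 0.071).

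Across gates, genes of both sides of the balance moved in both directions between Cd4 and Cd8 T cells, and the counts depended on the scaling. The counts of each list are read against 23.8% of all 12663 genes higher and 21.2% lower with TMM. Under scaling by total UMIs, 6566 of all genes were higher and 1090 lower. With scaling by total UMIs 6 of 12 Id3-side genes were lower and 4 higher, and 5 of 12 Id2-side genes were lower and 3 higher. With TMM, of the Id3-side genes 8 of 12 fell and 3 rose, with Ccr7 at -1.46 (SE 0.11), Klf2, a factor of quiescent cells, at -1.13 (SE 0.07) and Satb1 at -1.11 (SE 0.08). Of the Id2-side genes 7 of 12 fell and 3 rose (Runx3, among those that fell, was at 0.03 under scaling by total UMIs), with Klrg1 at 2.48 (SE 0.20), Prf1, which encodes perforin, at -1.76 (SE 0.12), Bhlhe40 at 1.69 (SE 0.10) and the activating receptor Klrk1 at -1.51 (SE 0.13). The median of the Id2-side list was -0.54 with TMM, against 0.01 over all genes, and a link of this list to the Id2 level was not tested. Of 8 tested E-protein targets 6 rose and 0 fell, with Cdkn1a, a cell cycle inhibitor, at 1.12 (SE 0.13), Cxcr5 at 0.72 (SE 0.15) and Socs3 at 0.29 (SE 0.08). Of 12 inducers 6 rose and 1 fell, led by the BMP receptor gene Bmpr2 (1.36, SE 0.17), Egr2 (1.16, SE 0.12), Stat5b (0.50, SE 0.04) and Tgfbr1 (0.40, SE 0.08). Of 12 tested partners 4 rose, Lmo4 (0.39, SE 0.07), Kat2b (0.25, SE 0.06), Cbfa2t2 (0.21, SE 0.06) and Crebbp (0.16, SE 0.04).

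In co-receptor-negative against Cd8 T cells the counts of each list are read against 17.3% of all genes higher and 11.1% lower. Of 12 tested partners 4 rose and 0 fell, with Lyl1 at 2.02 (SE 0.30), Lmo2 at 1.65 (SE 0.35), Cbfa2t3 at 1.61 (SE 0.16) and Lmo4 at 1.30 (SE 0.19). Lyl1, Lmo2 and Cbfa2t3 are also expressed in hematopoietic progenitors, and the 4 progenitor and mast cell markers summed to 9.46 to 523 CPM in this gate against 4.63 to 61.7 CPM in the Cd8 gate; their part in the result was not tested. Of 8 tested targets 4 rose and 3 fell, with Cdkn1a at 1.36 (SE 0.08), Dtx1 at -0.73 (SE 0.19) and Cxcr5 at -0.62 (SE 0.14). Of the inducers 6 of 12 rose and 0 fell, led by Bmpr2 (1.08, SE 0.14), Smad3 (0.65, SE 0.05), Egr3 (0.56, SE 0.14) and Tgfbr1 (0.49, SE 0.06). Of the Id3-side genes 6 of 12 fell and 1 rose, with Ccr7 at -2.0003 (SE 0.26), Bcl6 at 0.84 (SE 0.16), Lef1 at -0.82 (SE 0.15) and Klf2 at -0.75 (SE 0.09). Of the Id2-side genes Klrk1 (1.197, SE 0.05) and Bhlhe40 (0.94, SE 0.09) rose and Cx3cr1 (-1.12, SE 0.31) fell. Without Runx1::Runx1t1 replicate 1, 2 of the 12 Id3-side genes were lower and 0 higher.

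Between the groups, 1 of all 13360 genes passed in Cd8 T cells by edgeR, too few for the counts of the lists to be read. None of the listed genes passed there, with medians of -0.39 for the Id3-side list and 0.76 for the Id2-side list against -0.01 over all genes. List counts under settings that called more genes, such as DESeq2 with 864, are not given here. With 1 Runx1::Runx1t1 pool left out some list genes passed, but such a fit rests on 1 pool in that group and is not counted here. In Cd4 T cells the counts are read against 1.27% of all genes higher and 0.662% lower. There 3 of 12 Id3-side genes fell, among them Tcf7 (-0.58, SE 0.08) and Slamf6 (-0.55, SE 0.08). Tcf7 encodes the factor TCF-1 of naive and memory cells. Of the Id2-side genes Prdm1 (1.49, SE 0.20), Nkg7 (1.46, SE 0.12) and Bhlhe40 (1.01, SE 0.09) were among the 4 of 12 that rose, and Klrk1 fell by 1.67 (SE 0.24). Of the 8 tested E-protein targets 1 rose, Socs3 (0.45, SE 0.08), and no partner or inducer passed. Without Runx1::Runx1t1 replicate 2, 0 Id3-side genes passed in Cd4 T cells.

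In co-receptor-negative T cells, where 4.07% of all genes were higher and 2.22% lower, the lists moved in both directions between the groups. Of the 12 Id3-side genes, Ccr7 (1.38, SE 0.18) and S1pr1 (0.43, SE 0.09) rose and 1 fell. Prdm1 (1.34, SE 0.12) and Bhlhe40 (1.05, SE 0.08) rose while Klrk1 (-1.11, SE 0.11) and Tbx21, which encodes T-bet (-0.67, SE 0.10), were among the 3 of 12 Id2-side genes that fell. The calls of both lists changed when 1 pool was left out, in fits that rest on 1 pool in that group. Stat5a (0.57, SE 0.08) and Stat5b (0.47, SE 0.08), the transducers of interleukin signals, were the 2 inducers that rose. No E-protein partner or target passed in this gate.

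Over 46 sums of at least 30 cells by pool, gate and clone class, the patterns most like that of Id2 among 7692 genes were those of Tmbim6 (Pearson r = 0.93 on log2 of CPM plus 1), Itgb2 (0.92), Laptm5 (0.92), Entpd1 (0.91) and Itgal (0.91). Those most like Id3 were Nsg2 (r = 0.87), Cd2ap (0.85), mt-Cytb (0.83), mt-Co1 (0.83) and Tcf7 (0.83). Id2 and Id3 themselves had r = -0.69, Tcf12 had r = 0.47 with Id3 and -0.49 with Id2, and Tcf3 had r = 0.15 with Id2 and 0.10 with Id3. The sums share pools and clonotype classes, so these values are a description of the same libraries. Genes of the mitochondria and of the ribosome stand among those most like or most opposite, and the reason was not tested.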

How the data were processed

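Bone marrow T cells of 2 pools per group were measured in 4 gene expression libraries (10x Genomics 5′ chemistry) and 4 TCR libraries. Cell Ranger 6.1.2 was used by the authors, per the labels, for the UMI counts on GRCm38 (annotation release not given in the sources used here), which were deposited as counts without normalization. In the deposited contig tables the count is the number of UMIs per contig. Groups came from the labels, and nothing there says whether pools were processed on separate days, so p-values measure the spread between these pools. The member genes, lists and splits were chosen with earlier results of these data known, and Id2, Id3 and their balance are therefore given without p-values. The p-values of Tcf3 and Tcf12 and the list counts rest on the same data, so they are not independent support.

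Cells with fewer than 200 genes or over 15% mitochondrial UMIs were removed, and doublets were scored by Scrublet in scanpy 1.11.5 (expected rate 0.05). Where its automatic threshold marked under 0.5% of cells, the top 5% of scores were removed, which applied to all pools but Runx1::Runx1t1 replicate 2. Median UMIs per deposited barcode were 6239 to 6368. Gates needed 1 UMI of Cd8a or Cd8b1, of Cd4, or of neither. Clonotypes used the TRA and TRB contig with most UMIs. CPM is a gene's UMIs per 1000000 UMIs of the cells summed.

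Counts summed per pool were tested with edgeR 4.0.16 (quasi-likelihood, TMM, filterByExpr, Benjamini-Hochberg over all genes at 0.05; SE from the fold change and F statistic), checked on simulated data. DESeq2 1.42.0, other filters, scalings, gates and left-out pools were alternatives. Same-numbered pools of the groups deviated together (r = 0.26, 0.21 and 0.30 across genes in the Cd8, Cd4 and co-receptor-negative gates), but only 2 numbers exist and no label ties them, so pools were not paired. Of each list, at most 4 genes past the threshold with the largest changes are named, and some of these are not reported here. Intervals and a floor of 3 UMIs for a count of 0 cover counting error only. GENCODE M21 and RefSeq gave positions and promoters.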

Additional observations from a re-analysis of the deposited data

Results flagged for a closer look

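The 1721 T cells with UMIs of both co-receptors, which stood in no gate, also showed higher Id2 in the Runx1::Runx1t1 pools. Id2 averaged 596 CPM there (568 and 624 in the 2 pools) against 366 CPM in the control pools (332 and 400.1), and Id3 stood at 43.3 and 48.1 CPM against 73.7 and 69.8 CPM.

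In 6 cases both pools of a group moved one way between cell classes and both pools of the other group moved the opposite way. The difference was not tested. These cases were picked by their signs from a larger set of comparisons of the member genes. With so few pools per group, such opposite signs can arise by chance. The share of all genes that show them was not counted, so the cases are not read as findings. Each value is the log2 fold in the Runx1::Runx1t1 group minus that in the control group. For Id3 in Cd4 T cells, clonotypes of 10 or more cells over those seen once, it was -2.02, with 6 and 28 UMIs behind the control levels of the large clonotypes. For gamma-delta over other paired alpha-beta co-receptor-negative T cells it was -0.49 for Id2 and 0.33 for Id3. For Tcf3 it was -0.19 for Cd4 over co-receptor-negative T cells, -0.16 for Cd4 clonotypes of 2 or more cells over those seen once, and -0.24 for Cd4 over Cd8 T cells among clonotypes seen once.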

How the results depend on the processing

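The order of the balance between Cd4 and co-receptor-negative T cells turned with the calling of lineage and with each clonotype counted once. The latter setting also left out cells without a clonotype. The mean of the balance in the Cd4 gate was 3.56 and became 2.94 with the lineage of clusters. Its difference between the groups moved by more than the spread between pools as follows. In Cd8 T cells (1.41) it was 1.67 with the lineage of clusters, 1.56 with cells thinned to 2000 UMIs, 0.69 with each clonotype counted once, 1.22 without the largest clonotype and 0.63 with clonotypes of 1 cell. In Cd4 T cells (0.90) it was 1.30 with at least 2 co-receptor UMIs, 0.30 with each clonotype counted once and 0.17 with clonotypes of 1 cell. In co-receptor-negative T cells (0.82) it was 1.05 with stricter gates, 1.17 with the lineage of clusters and 1.13 with clonotypes of 1 cell. Leaving out a pool gave 1.29 to 1.53, 0.85 to 0.96 and 0.62 to 1.01.

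Counts of genes past the threshold moved as follows; the cause was not tested. For the groups in Cd8 T cells (1) the count was 864 with DESeq2, 799 without the filter on low counts, 145 with scaling by total UMIs (chosen after seeing the data), 13 without doublet removal, 15 with stricter cell limits, 8 with at least 2 co-receptor UMIs, 678 with clonotypes of 1 cell, 263 without the largest clonotype, and 3 to 1602 without 1 pool (1602 without Runx1::Runx1t1 replicate 1, 298 without Runx1::Runx1t1 replicate 2, 3 without control replicate 1, 6 without control replicate 2). In Cd4 T cells (225) it was 84 (without Runx1::Runx1t1 replicate 2) to 274 without 1 pool, and 118 without Runx1::Runx1t1 replicate 1 and 149 without control replicate 1. In co-receptor-negative T cells (805) it was 426 with at least 2 co-receptor UMIs and 313 (without control replicate 1) to 1187 without 1 pool, and 490 without control replicate 2. Between co-receptor-negative and Cd8 T cells (3692) it was 5759 with scaling by total UMIs (5158 higher and 601 lower, against 2248 and 1444), 2264 without the pool block and 1952 to 4050 without 1 pool (1952 without Runx1::Runx1t1 replicate 1, 2052 without control replicate 2). Between expanded and single clonotypes (2756) it was 5143 with scaling by total UMIs (4310 higher and 833 lower, against 1374 and 1382) and 136 to 2367 without 1 pool (136 without Runx1::Runx1t1 replicate 1, 1371 without control replicate 1). Between Cd4 and Cd8 T cells, scaling by total UMIs gave 6566 higher and 1090 lower, against 3012 and 2683. Between the groups that scaling gave 157 higher and 126 lower in Cd4 T cells, against 148 and 77, and 764 higher and 220 lower in co-receptor-negative T cells, against 521 and 284.

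With the replicate number as a block, 902, 520 and 1934 genes passed between the groups in Cd8, Cd4 and co-receptor-negative T cells, the balance differences were the same, and Tcf12 passed in co-receptor-negative T cells (-0.27, adjusted p = 0.036). It changed no other call of Tcf3 or Tcf12.

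Without 1 pool, Tcf3 ranged up to 0.26 in the Cd8 group comparison, down to -0.047 in the Cd4 group comparison and down to -0.25 between clone classes. Tcf3 changed sign in the Cd8 group comparison without Runx1::Runx1t1 replicate 1 (-0.0031), in the Cd4 group comparison without the filter on low counts (0.020), without doublet removal (0.0065), with at least 2 co-receptor UMIs (0.013), without Runx1::Runx1t1 replicate 2 (0.032) and without control replicate 1 (0.043), in the gate comparisons with scaling by total UMIs (0.025 and 0.068), and between clone classes with that scaling (0.11) and without Runx1::Runx1t1 replicate 2 (0.061). Tcf12 was at 0.00010 in the Cd8 group comparison with clonotypes of 1 cell.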
